A study of Homo sapiens with 6 samples.

Results

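Transcripts of the translation initiation, elongation and release factors were examined in SH-SY5Y cells, a human neuroblastoma line, 24 h after infection with an adenovirus that expresses the orphan nuclear receptor ERRγ. Members were chosen by symbol alone. They were the protein-coding genes whose symbols begin with EIF1 to EIF6 or with EEF1 or EEF2, plus ETF1 and GSPT1. Genes of modifying enzymes that share these letters (EIF2AK, EEF2K, EEF2KMT and EEF1AKMT) were left out. This gave 62 of the 67060 genes of the count table, of which 52 were initiation factors, 8 elongation factors and 2 release factors.

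The control virus was Ad CMV GFP (GFP libraries, replicates 1, 3 and 4) and the other virus Ad CMV 3xFlag-Esrrg (ERRγ libraries, replicates 2, 3 and 4). Both viruses drive their insert from the CMV promoter, which is active in most cell types, and all 6 libraries came from infected cells, so that no uninfected cells were compared. RNA was total RNA after removal of ribosomal RNA, and the authors deposited raw counts per gene. The cells are 1 line at 1 time point. Nothing in the labels says that the replicates of a group came from separate cultures, so p-values measure the spread between these libraries, which may be technical.

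Between 24969759 and 29700980 reads per GFP library and between 26513620 and 40859666 per ERRγ library were counted on genes. ESRRG itself measured 83.6 to 90.4 normalized counts per 1000000 (CPM) in the GFP libraries and 570 to 778 CPM in the ERRγ libraries. According to the paper, the insert is the Esrrg coding sequence that it also probed in mice. Counts on human ESRRG may thus mix reads of the insert and of the cells' own gene, and their parts were not tested. Reads assigned to no counted feature are called reads outside genes below, although some may lie within genes, since the counting settings are not given. They made up 51.3% to 52.2% of the GFP libraries and 46.6%, 31.6% and 29.5% of ERRγ replicates 2, 3 and 4. ERRγ replicate 2 stood apart from the other ERRγ libraries on the first and second principal components, which held 74.7% and 10.6% of the variance. On the first, it stood at 24.3, ERRγ replicates 3 and 4 at 72.0 and 78.7, and the GFP libraries at -64.6 to -53.5. Of 10 catecholaminergic neuroblastoma markers, 8 were measured in all libraries, and TH and CHGA were listed at 0 counts in each. Of these, DBH and GATA2 were called lower in the ERRγ libraries (log2 fold changes of -2.64 and -1.08) and PHOX2A higher (0.81). The mesenchymal markers COL3A1, COL1A1, PRRX1 and PDGFRB were also measured, and the 7 markers of that list summed to 3511 to 3620 CPM in the GFP libraries and 3388 to 3638 CPM in the ERRγ libraries. COL3A1 alone held 2452 to 2639 CPM of that sum, and within the list FOSL1 was called higher (2.14) and COL1A2 lower (-1.47). Their part in the results was not tested. The 5 immune markers summed to at most 0.786 CPM in any library.

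Initiation factors bring the initiator tRNA, the small ribosomal subunit and the capped mRNA together until the start codon is found. Elongation factors then deliver aminoacyl-tRNAs and move the ribosome along the message, and release factors end the chain at a stop codon. The steps best known for control are the reloading of eIF2 with GTP by eIF2B and the binding of the cap by eIF4E, which the eIF4E-binding proteins hold back until mTOR phosphorylates them.

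Transcripts of initiation factors were more often higher than lower with ERRγ. The 4 measured genes named as elongation factors had higher CPM in every ERRγ library than in every GFP library, EEF1A1 only narrowly in ERRγ replicate 2. A gene was called at an adjusted p below 0.05 in edgeR's quasi-likelihood test, adjusted over the 24500 genes that passed the filter on low counts, together with a fold change of at least 1.5. Of the 62 members, 54 passed the filter and 8 did not. Of those 54, 26 were called higher (48.1%), 1 was called lower and 27 were not called. Over all tested genes, 17.3% were called higher and 16.8% lower, and over protein-coding genes 25.9% and 12.4%. The median log2 fold change of the 54 members was 0.54, beside -0.10 over all tested genes and 0.12 over protein-coding genes. The 3 ERRγ libraries lay entirely above the 3 GFP libraries for 39 of the 54 members and entirely below them for 5, where 27.8% and 30.3% of all tested genes did so. Relative to the GFP mean, the median member stood at a log2 ratio of 0.21 in ERRγ replicate 2, 0.76 in replicate 3 and 0.64 in replicate 4.

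**Figure D1:**
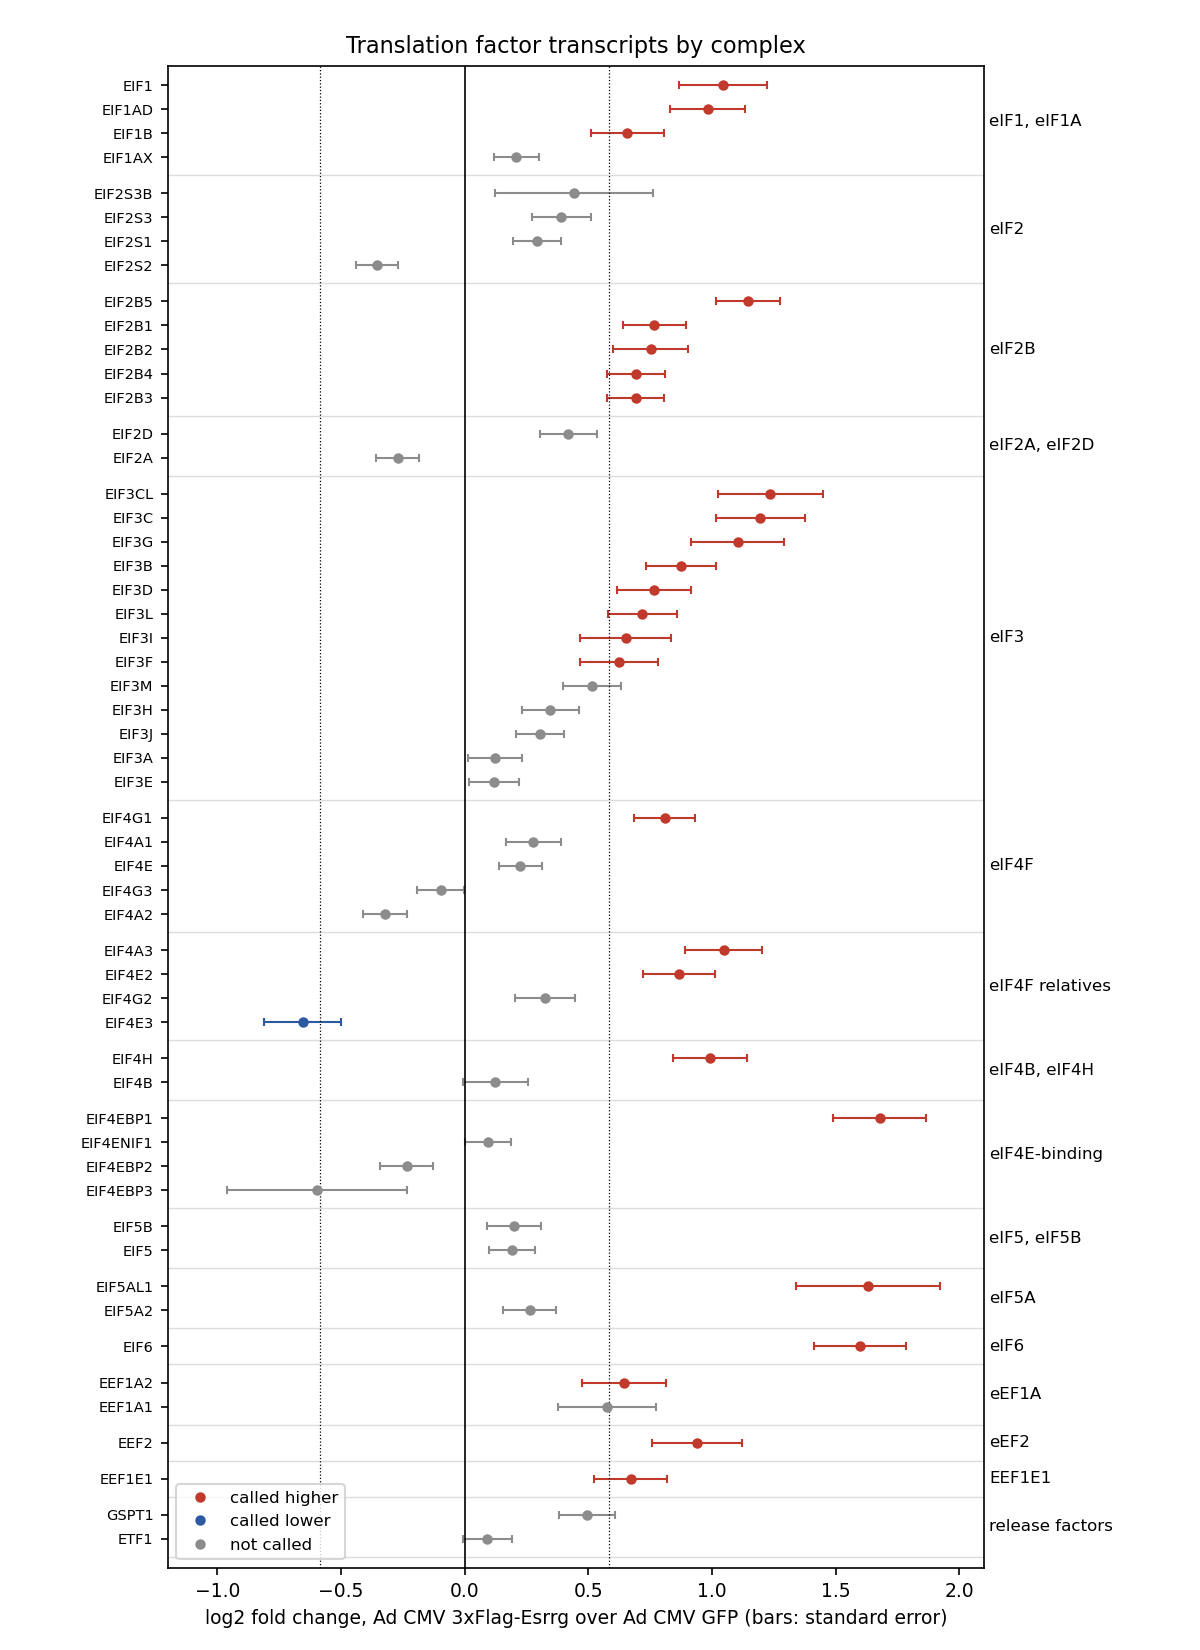
Log2 fold change of the 54 tested members (x axis, ERRγ over GFP libraries, 3 libraries each) with its standard error as bars, grouped by complex (y axis); dotted lines mark 1.5-fold in either direction and colours show the 26 genes called higher, the 1 called lower and the 27 not called. All 5 eIF2B subunits sit to the right of the 1.5-fold line, while the eIF2 subunits and most of eIF4F sit inside it.

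The share of reads outside genes, which was lower in every ERRγ library than in any GFP library, moved with these differences. With that share as a covariate in the fit, 3 members were called higher, EIF4EBP1, EIF6 and EIF2B5, and 0 lower, where 7.24% and 5.4% of all tested genes were. Since the share separates the groups completely, it and the treatment cannot be told apart. Fewer cells of a kind and less RNA per cell cannot be told apart in bulk RNA either. In what follows, values in single libraries are CPM in the order GFP replicates 1, 3 and 4 and ERRγ replicates 2, 3 and 4, and each log2 fold change is given with its standard error.

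EEF2, the GTPase that translocates the ribosome, measured 2060.0, 2519 and 2367 CPM in the GFP libraries and 3291, 4756 and 5275 CPM in the ERRγ libraries. Every ERRγ library lay above every GFP library, and the log2 fold change was 0.94 ± 0.18 (adjusted p = 0.00185, edgeR's quasi-likelihood test). With the correction for GC content and transcript length it was 0.53 and not called. The gene is at chr19:3976056-3985463 on the minus strand of GRCh38.

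EEF1A1, at chr6:73489308-73525587 on the minus strand, encodes the common form of the factor that brings aminoacyl-tRNA to the ribosome. It measured 5973, 6576 and 6735 CPM with GFP and 6768, 10993 and 10954 CPM with ERRγ, so that ERRγ replicate 2 was level with the highest GFP library. As a share of all counts on genes, ERRγ replicate 2 (0.682%) was below GFP replicates 3 and 4 (0.727% and 0.751%). Its log2 fold change was 0.57 ± 0.20 (adjusted p = 0.0337 by edgeR's quasi-likelihood test), just inside the 1.5-fold limit, and it was not called. Without ERRγ replicate 2 the log2 fold change was 0.88, and the gene was called. Per kilobase of transcript, the level of EEF1A1 was the highest of all members in the GFP group (1830.2 CPM per kilobase), followed by EEF2 (733) and EIF4G2 (234). Of the 31-base words in its transcript, 52.7% also occurred elsewhere in the genome, and 49 annotated EEF1A1 pseudogenes held counts worth 1.3% to 1.56% of its own.

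EEF1A2, the form of eEF1A made in neurons and muscle, was called higher at a far lower level. It measured 18.1, 21.5 and 21.4 CPM with GFP and 22.7, 34.4 and 38.0 CPM with ERRγ, without overlap, and its log2 fold change was 0.64 ± 0.17 (adjusted p = 0.0101 by edgeR's quasi-likelihood test). Without ERRγ replicate 4 or GFP replicate 1 it was no longer called (log2 fold changes of 0.50 and 0.57). EEF1E1, whose protein sits in the multisynthetase complex and is not itself an elongation factor, measured 4.5, 4.82 and 4.35 CPM with GFP and 6.25, 7.99 and 7.48 CPM with ERRγ. The groups did not overlap, and the log2 fold change was 0.67 ± 0.15 (adjusted p = 0.00362 by edgeR's quasi-likelihood test).

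The subunits of eEF1B, which recharge eEF1A with GTP, could not be measured. EEF1B2 held 2 counts over all 6 libraries, EEF1D held 0 and EEF1G held 1, although eEF1B belongs to the common machinery of translation. The readthrough transcript EEF1E1-BLOC1S5 also held 0. Of the words of EEF1B2, 81.0% occurred elsewhere on the main chromosomes, and of those of EEF1D 88.3% occurred on alternate contigs. For EEF1G, 82.7% occurred elsewhere and 99.5% of its exonic bases lay in another annotated gene. Among initiation factors, EIF5A held 5 counts in all (60.5% of words elsewhere), EIF3K held 1 (4.6%), EIF4E1B held 8 and EIF1AY held 0. For these 8 genes nothing is known of the difference between groups, and whether shared sequence set their counts was not tested.

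Neither release factor was called. GSPT1, the GTPase eRF3a, measured 194, 201 and 189 CPM with GFP and 234, 301 and 289 CPM with ERRγ. Its ERRγ libraries were all higher, but the log2 fold change of 0.50 ± 0.11 (adjusted p = 0.00475 by edgeR's quasi-likelihood test) was below 1.5-fold, and without ERRγ replicate 2 it was called at 0.71. ETF1, which reads the stop codon, measured 139, 143 and 140.2 CPM with GFP and 137, 165 and 147 CPM with ERRγ. The groups overlapped (log2 fold change 0.09 ± 0.10), and the sign turned with library size as the only scaling, with protein-coding genes alone and with the outside-gene share as a covariate.

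The start sites of these genes were inspected because mRNAs of the translation machinery often begin with a C and a run of pyrimidines, the terminal oligopyrimidine (TOP) start through which mTOR controls their translation. In the RefSeq promoter table (GRCh38.p14), 52 of the 62 members had an entry. A C at the annotated start followed by at least 4 further pyrimidines was found in 13 of the 52 (25%), beside 5.14% of 27305 genes in the table. Windows of 30 bases are shown for EEF1A1 and EEF2, the most abundant measured elongation factors, and for EIF4A2 and EIF3F, which have such a start and went opposite ways. Each holds 10 bases before the annotated start and 20 from it, 5′ to 3′ on the gene's strand, with the pyrimidine run in capitals.
EEF1A1 (chr6:73521013-73521042, minus strand): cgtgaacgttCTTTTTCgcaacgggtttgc
EEF2 (chr19:3985444-3985473, minus strand): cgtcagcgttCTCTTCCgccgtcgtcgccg
EIF4A2 (chr3:186783567-186783596, plus strand): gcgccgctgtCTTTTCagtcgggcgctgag
EIF3F (chr11:7987327-7987356, plus strand): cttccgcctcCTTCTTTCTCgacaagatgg
Of the 11 tested members with a TOP start, 3 were called higher, and their median log2 fold change was 0.44. Of the 34 tested members whose entry lacked one, 18 were called higher, with a median of 0.65. Over all tested genes 17.3% were called higher and over protein-coding genes 25.9%, and a link between the start and the change was not tested.

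A motif bound by MYC and related factors, CACGTG, was found within 250 bases before the start in 11 of the 52 members (21.2%), beside 7.73% of all genes in the table. The word reads the same on both strands. Of the 10 tested members that held it, 6 were called higher (median log2 fold change 0.64), and of the 35 others 15 were (0.50). These counts stand beside 17.3% of all tested genes and 25.9% of protein-coding genes called higher. Whether the word bears on the change was not tested. The extended half-site of ERR receptors was searched on both strands as TNAAGGTCA and was found in 1 member, EEF1B2, beside 1.05% of all genes. The windows of EIF4A3, EIF4H and EIF4G1 are shown since these 3 genes were all called higher, as were EIF1B, EIF2B3 and EIF3F, which also held the word. It was held as well by EIF4B (0.12), EIF4E (0.22), EIF5A2 (0.26) and EIF4EBP3 (-0.60), which were not called and are not shown. EIF4G1 held the word at 2 places. CACGTG is in capitals.
EIF4A3 (chr17:80147232-80147261, minus strand): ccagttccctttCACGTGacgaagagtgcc
EIF4H (chr7:74174145-74174174, plus strand): acgccgccgcacCACGTGggctgcagagcg
EIF4G1, farther from the start (chr3:184314450-184314479, plus strand): ggctgtggctgtCACGTGacggggcggggg
EIF4G1, nearer to the start (chr3:184314527-184314556, plus strand): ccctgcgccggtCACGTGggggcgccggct
A match is a run of letters, and binding was not measured here.

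Of the 4 tested genes of eIF1, eIF1A and their relatives, which act while the ribosome scans for the start codon, 3 were called higher. Over all tested genes 17.3% were called higher, and over protein-coding genes 25.9%. EIF1, which keeps the scanning complex open until a start codon is met, measured 303, 371 and 345 CPM with GFP and 499, 786 and 819 CPM with ERRγ. All ERRγ libraries were higher (log2 fold change 1.05 ± 0.18, adjusted p = 0.000843 by edgeR's quasi-likelihood test). EIF1AD, whose protein shares a domain with eIF1A, measured 24.1, 30.8 and 23.4 CPM with GFP and 41.1, 54.2 and 59.3 CPM with ERRγ, a log2 fold change of 0.98 ± 0.15. EIF1B, a close relative of EIF1, measured 33.2, 37.5 and 36.7 CPM with GFP and 42.3, 62.6 and 64.4 CPM with ERRγ. Its log2 fold change of 0.66 ± 0.15 was called over all libraries but not without ERRγ replicate 3 (0.58) or replicate 4 (0.56). EIF1AX, which encodes eIF1A itself, was not called (0.21 ± 0.09).

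eIF2 carries the initiator tRNA, and eIF2B is the exchange factor that returns eIF2 to its GTP form. The 5 genes of eIF2B were all called higher, while none of the 4 eIF2 genes was called by edgeR's quasi-likelihood test. Over all tested genes 17.3% were called higher, and over protein-coding genes 25.9%. Without the 1.5-fold limit, 2 of the 4 eIF2 genes passed as higher and 1 as lower, where 24.3% and 23.5% of all tested genes did. With the correction for GC content and transcript length, 4 of the 5 eIF2B genes and 1 of the 4 eIF2 genes were called higher. Beside these, 15.5% of all tested genes were called higher with the correction. The median log2 fold changes of eIF2B and eIF2 genes were then 0.83 and 0.59, beside 0.75 and 0.34 without it. EIF2B5, the catalytic subunit at chr3:184135038-184146127, measured 48.1, 52.2 and 46.8 CPM with GFP and 87.3, 116 and 121 CPM with ERRγ. Its log2 fold change was 1.15 ± 0.13 (adjusted p = 9.26e-05 by edgeR's quasi-likelihood test). No ERRγ library came near the GFP range. EIF2B5 was also called with the outside-gene share as a covariate (0.69), but that share cannot be told apart from the treatment.

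The other eIF2B genes also rose. EIF2B1 measured 54.1, 56.1 and 54 CPM with GFP and 74.0, 101 and 105 CPM with ERRγ (0.77 ± 0.13). EIF2B2 measured 35.5, 35.5 and 34.3 CPM with GFP and 43.9, 63.1 and 70.0 CPM with ERRγ (0.75 ± 0.15). EIF2B4 measured 28.9, 29.2 and 28.5 CPM with GFP and 38.6, 48.8 and 52.6 CPM with ERRγ (0.69 ± 0.12). In all of these the GFP libraries lay close together and ERRγ replicate 2 was the lowest of its group. EIF2B3, the partner of the catalytic subunit, was called at 0.69 ± 0.12.

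The eIF2 genes did not move together. EIF2S1, the subunit phosphorylated under stress, measured 86.6, 85.3 and 87.9 CPM with GFP and 95.0, 115 and 108 CPM with ERRγ (0.29 ± 0.10). EIF2S2 measured 72.3, 73.1 and 74.4 CPM with GFP and 58.1, 58.6 and 55.4 CPM with ERRγ. All ERRγ libraries were lower, and its log2 fold change of -0.35 ± 0.08 (adjusted p = 0.00604 by edgeR's quasi-likelihood test) was below 1.5-fold. EIF2S3, the GTP-binding subunit, stood at 0.39 ± 0.12, and its retrocopy EIF2S3B, at 0.461 to 0.891 CPM, overlapped between groups (0.44 ± 0.32). The summed level per kilobase of the eIF2B genes was 0.480 to 0.520 of that of the eIF2 genes in the GFP libraries and 0.695, 0.737 and 0.784 in ERRγ replicates 2, 3 and 4. This ratio was not computed with the GC and length correction. Of the words of EIF2S2 and EIF2S3, 44.5% and 44.1% occurred elsewhere in the genome, and of those of each eIF2B gene at most 3.8%. The part in this ratio of reads aligned to several places, which were not counted, was not tested. EIF2A and EIF2D, which can bring initiator tRNA without eIF2, were not called (-0.27 ± 0.09 and 0.42 ± 0.11). EIF2D measured 58.1, 58.8 and 57.6 CPM with GFP and 65.1, 81.3 and 87.0 CPM with ERRγ, and was called without ERRγ replicate 2 (0.64).

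**Figure D2:**
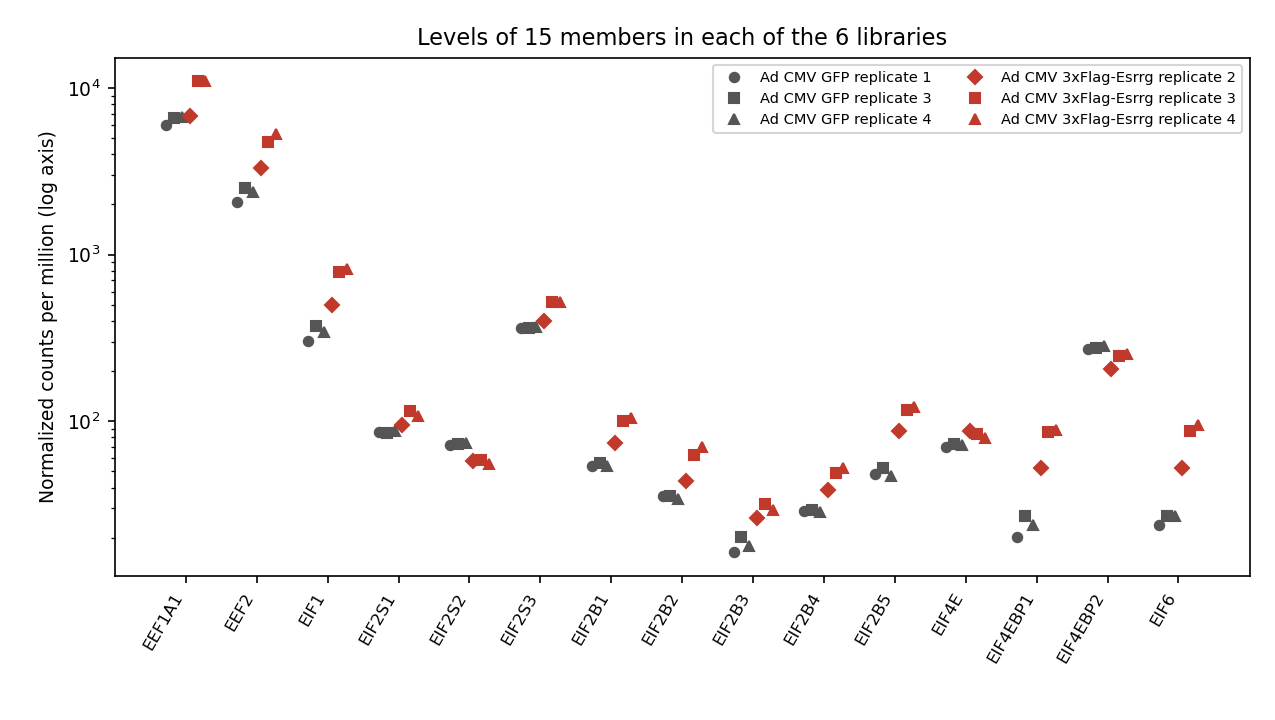
CPM (y axis, log scale) of 15 members (x axis) in the 6 libraries, with grey symbols for the 3 GFP and red symbols for the 3 ERRγ libraries; each symbol is 1 library. The red symbols of EIF2S2 and EIF4EBP2 lie below all grey ones, and those of all other plotted genes lie above, for EEF1A1 only narrowly.

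eIF3, the scaffold that binds the small subunit and the mRNA complex, had 13 of its 14 genes tested. Of these, 8 were called higher and none lower, where 17.3% and 16.8% of all tested genes were. Over protein-coding genes it was 25.9% and 12.4%. EIF3B, a core subunit, measured 151, 187 and 177 CPM with GFP and 252, 343 and 349 CPM with ERRγ (0.87 ± 0.14). EIF3G, an RNA-binding subunit, measured 85.2, 108 and 101 CPM with GFP and 144, 239.6 and 248 CPM with ERRγ (1.10 ± 0.19, adjusted p = 0.000854 by edgeR's quasi-likelihood test). Neither gene overlapped between groups.

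EIF3C, the subunit that contacts eIF1, and its copy EIF3CL share 80.2% of their words with other places in the genome, so reads could have been split between them. EIF3C measured 15.8, 21.2 and 19.3 CPM with GFP and 30.6, 48.4 and 49.9 CPM with ERRγ (1.20 ± 0.18). EIF3CL measured 1.95, 2.36 and 2.84 CPM with GFP and 4.38, 5.61 and 6.87 CPM with ERRγ (1.24 ± 0.21). Both were higher in all ERRγ libraries, and their levels are uncertain. EIF3D, EIF3F and EIF3L were called at 0.77, 0.62 and 0.72, and EIF3I at 0.65, although its GFP replicate 3 (226 CPM) was above ERRγ replicate 2 (222 CPM). Of the exonic bases of EIF3L, 58.5% lay in another annotated gene. The largest subunit, EIF3A, was not called (0.12 ± 0.11), nor were EIF3E (0.12 ± 0.10), EIF3H (0.35 ± 0.12), EIF3J (0.30 ± 0.10) and EIF3M (0.51 ± 0.12).

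eIF4F binds the cap through eIF4E, unwinds the leader with the helicase eIF4A and joins both on the scaffold eIF4G. Of its 5 genes, EIF4G1 alone was called, as higher, where 17.3% of all tested genes and 25.9% of protein-coding genes were. EIF4G1 measured 456, 534 and 499 CPM with GFP and 764, 889 and 956 CPM with ERRγ, without overlap (0.81 ± 0.12, adjusted p = 0.000455 by edgeR's quasi-likelihood test). Its paralog EIF4G3 measured 244, 248 and 248 CPM with GFP and 247, 227 and 217 CPM with ERRγ and overlapped (-0.10 ± 0.10). EIF4G2, a relative that lacks the eIF4E site, measured 893, 884 and 883 CPM with GFP and 961, 1202 and 1171 CPM with ERRγ and stayed inside 1.5-fold (0.33 ± 0.12).

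The cap-binding genes went different ways. EIF4E measured 69.6, 72.6 and 72.0 CPM with GFP and 86.9, 84.3 and 79.1 CPM with ERRγ (0.22 ± 0.09, adjusted p = 0.0551 by edgeR's quasi-likelihood test). EIF4E2, a cap-binding protein that represses translation, measured 67.1, 73.3 and 71.3 CPM with GFP and 97.1, 142 and 146 CPM with ERRγ and was called higher (0.87 ± 0.14). EIF4E3, an atypical cap-binding protein, measured 6.56, 5.92 and 5.01 CPM with GFP and 3.70, 3.77 and 3.61 CPM with ERRγ. It was the 1 member called lower (-0.66 ± 0.16, adjusted p = 0.00587 by edgeR's quasi-likelihood test). Its ERRγ libraries were all below the GFP libraries. The call was lost without ERRγ replicate 2 (-0.55) or GFP replicate 1 (-0.56), and with the correction for GC content and length the log2 fold change was -0.22 and not called.

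The helicase genes differed as well. EIF4A2 measured 221, 220.4 and 220.2 CPM with GFP and 178, 180.4 and 170.5 CPM with ERRγ, lower in all ERRγ libraries but by less than 1.5-fold (-0.32 ± 0.09, adjusted p = 0.0126 by edgeR's quasi-likelihood test). EIF4A1 measured 10.2, 9.60 and 9.88 CPM with GFP and 11, 12.7 and 12.2 CPM with ERRγ (0.28 ± 0.11). Of the exonic bases of EIF4A1, 99.9% lay in another annotated gene, so its counts are uncertain. EIF4A3, the helicase of the exon junction complex, measured 47.2, 58.6 and 52.7 CPM with GFP and 82.1, 121 and 124 CPM with ERRγ and was called higher (1.05 ± 0.16). The helicase cofactor EIF4H measured 316, 362 and 347 CPM with GFP and 525, 729.8 and 784 CPM with ERRγ (0.99 ± 0.15), and 72.0% of its words occurred elsewhere in the genome. The other cofactor, EIF4B, was not called (0.12 ± 0.13).

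EIF4EBP1, the best known of the proteins that hold eIF4E away from eIF4G, had the largest log2 fold change of the 54 tested members before correction for GC content. It measured 20.1, 26.9 and 23.8 CPM with GFP and 52.4, 86.1 and 88.0 CPM with ERRγ (1.68 ± 0.19, adjusted p = 9.5e-05 by edgeR's quasi-likelihood test). The lowest ERRγ library was well above the highest GFP library. The gene was also called with the outside-gene share as a covariate (0.91), which cannot be told apart from the treatment. Its paralog EIF4EBP2 measured 270.5, 275 and 283 CPM with GFP and 205, 246 and 254 CPM with ERRγ, lower in each ERRγ library without being called (-0.23 ± 0.11). EIF4EBP3, at 0.386 to 1.03 CPM, overlapped (-0.60 ± 0.36), and EIF4ENIF1, which carries eIF4E to the nucleus, was not called (0.09 ± 0.09). Per kilobase, the level of EIF4EBP1 was 0.849 to 1.09 times that of EIF4E in the GFP libraries and 1.77, 3.0 and 3.27 times in ERRγ replicates 2, 3 and 4. This ratio was not computed with the GC and length correction, and the GC contents were 62.9% and 34.5%. Of the words of EIF4E, 58.3% occurred elsewhere in the genome, and of those of EIF4EBP1 2.4%. The part in this ratio of reads aligned to several places, which were not counted, was not tested.

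Ratios between paralogs within a library do not depend on a scaling factor per library, but a correction for GC content can move them. In 9 pairs, each tested with an exact two-sided permutation test of 3 against 3 libraries, the smallest p that the design allows is 0.1, and none can pass the threshold. In 8 pairs the groups did not overlap (p = 0.1 each, exact permutation test, 0.1125 after Benjamini-Hochberg adjustment). The log2 ratio of EIF4EBP2 to EIF4EBP1 went from 3.56 ± 0.20 (SD, n = 3) to 1.67 ± 0.26, that of EIF4G3 to EIF4G1 from -1.01 ± 0.10 to -1.91 ± 0.26, and that of EIF4E3 to EIF4E from -3.62 ± 0.22 to -4.49 ± 0.05. The ratio of EIF4A2 to EIF4A1 fell by 0.60 on the log2 scale. Those of EIF4G2 to EIF4G1 and EIF1B to EIF1 fell by 0.49 and 0.38. Those of EIF4A3 to EIF4A1 and EIF4E2 to EIF4E were higher by 0.75 and 0.62. Both ratios to EIF4A1 are uncertain, since 99.9% of its exonic bases lay in another annotated gene. For EIF4E, 58.3% of words occurred elsewhere in the genome, and whether this bears on its ratios was not tested. EEF1A2 to EEF1A1 overlapped between groups (difference 0.07, p = 0.3, exact permutation test). After the GC and length correction, the difference of the log2 fold changes of EEF1A2 and EEF1A1 was -0.55, the opposite direction. The other 8 pairs kept their direction, at -1.45 for EIF4EBP2 and EIF4EBP1, -0.52 for EIF4G3 and EIF4G1 and -0.75 for EIF4E3 and EIF4E. The differences were small for EIF4G2 and EIF4G1 (-0.052) and for EIF1B and EIF1 (-0.12).

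**Figure D3:**
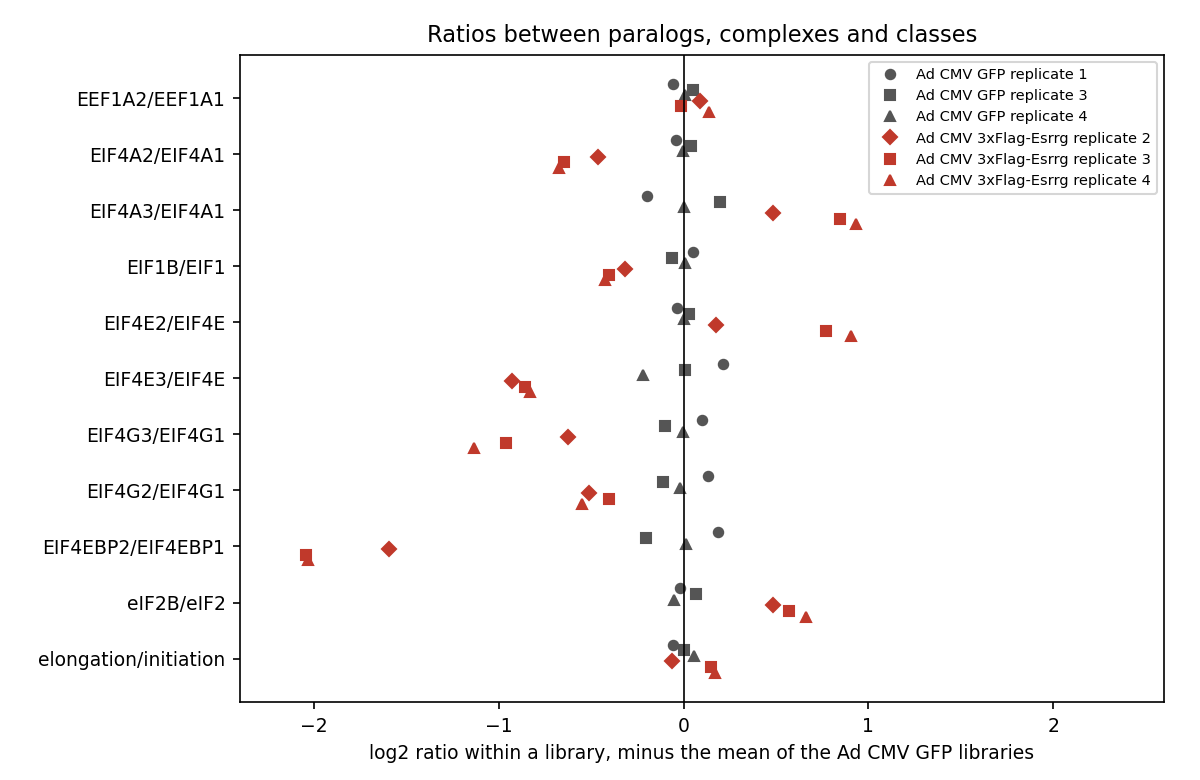
Log2 ratios within each library (x axis, minus the mean of the GFP libraries) for 9 paralog pairs, for eIF2B over eIF2 and for elongation over initiation factors (y axis), with grey symbols for the 3 GFP and red symbols for the 3 ERRγ libraries. EIF4EBP2/EIF4EBP1 lies farthest from 0, and EEF1A2/EEF1A1 and elongation over initiation overlap between groups.

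Among the late initiation factors, EIF6, at chr20:35278907-35284985, encodes a protein that binds the large ribosomal subunit and keeps it from joining too early. It measured 23.9, 27 and 26.9 CPM with GFP and 52.7, 87.8 and 94.7 CPM with ERRγ (1.60 ± 0.19, adjusted p = 0.000117 by edgeR's quasi-likelihood test), and it was also called with the outside-gene share as a covariate (0.77). EIF5B, which joins the subunits, measured 90.1, 105 and 82.4 CPM with GFP and 99.5, 114 and 105 CPM with ERRγ and overlapped (0.20 ± 0.11); its sign turned with library size as the only scaling. EIF5, which triggers GTP hydrolysis on eIF2, was not called (0.19 ± 0.09), nor was EIF5A2 (0.26 ± 0.11), 1 of the genes for the factor that relieves stalled ribosomes. EIF5AL1, a retrocopy of EIF5A, was called higher at 0.461, 0.485 and 0.725 CPM with GFP and 1.27, 2.08 and 1.85 CPM with ERRγ (1.63 ± 0.29). Since 73.5% of its words occurred elsewhere and EIF5A was listed near 0, which of these genes the reads came from is uncertain.

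Elongation factors were set against initiation factors as classes. Of 48 tested initiation factors, 23 were called higher and 1 lower, with a median log2 fold change of 0.48. Of 4 tested genes named as elongation factors, 3 were called higher (EEF2, EEF1A2 and EEF1E1), with a median of 0.66 and a range of 0.57 to 0.94, where 17.3% of all tested genes and 25.9% of protein-coding genes were called higher. After the GC and length correction 2 of the 4 were called, EEF1A1 and EEF1E1, where 15.5% of all tested genes were called higher. The difference of the medians was 0.18, and against the 33 tested core initiation factors (median 0.62) it was 0.034. The class sums leave out 4 of the 8 elongation genes, among them those of eEF1B, and also EIF5A and EIF3K, none of which could be measured. Summed over the measured genes per kilobase of transcript, elongation factors measured 1.11 to 1.20 times the level of initiation factors in the GFP libraries and 1.11, 1.28 and 1.3 times in ERRγ replicates 2, 3 and 4. ERRγ replicate 2 lay below all GFP libraries and the other ERRγ libraries above, so the groups overlapped. EEF1A1 and EEF2 together made up 99.4% of this incomplete elongation sum in each library. Within it, EEF2 counts were 0.345 to 0.383 of those of EEF1A1 in the GFP libraries and 0.433 to 0.486 in the ERRγ libraries, without overlap. The log2 fold change of EEF2 was higher than that of EEF1A1 by 0.37, and after the GC and length correction the difference was -0.22, the opposite direction.

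The GC content of the transcript moved with the fold change. Across the 54 tested members, Pearson's r between GC content and log2 fold change was 0.53 (Spearman's rho 0.59), and across the 13 eIF3 subunits it was 0.85 (0.87). Over 24232 tested genes r was 0.33 (0.37). These are descriptions across genes that share the same 6 libraries, and genes are not independent replicates. Below 45% GC, 4 of 27 members were called higher, beside 5.86% of all tested genes and 8.54% of protein-coding genes. From 45% to 50% it was 7 of 9 (14.8% and 23.6%), and from 50% on 15 of 18 (31.1% and 41.8%).

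**Figure D4:**
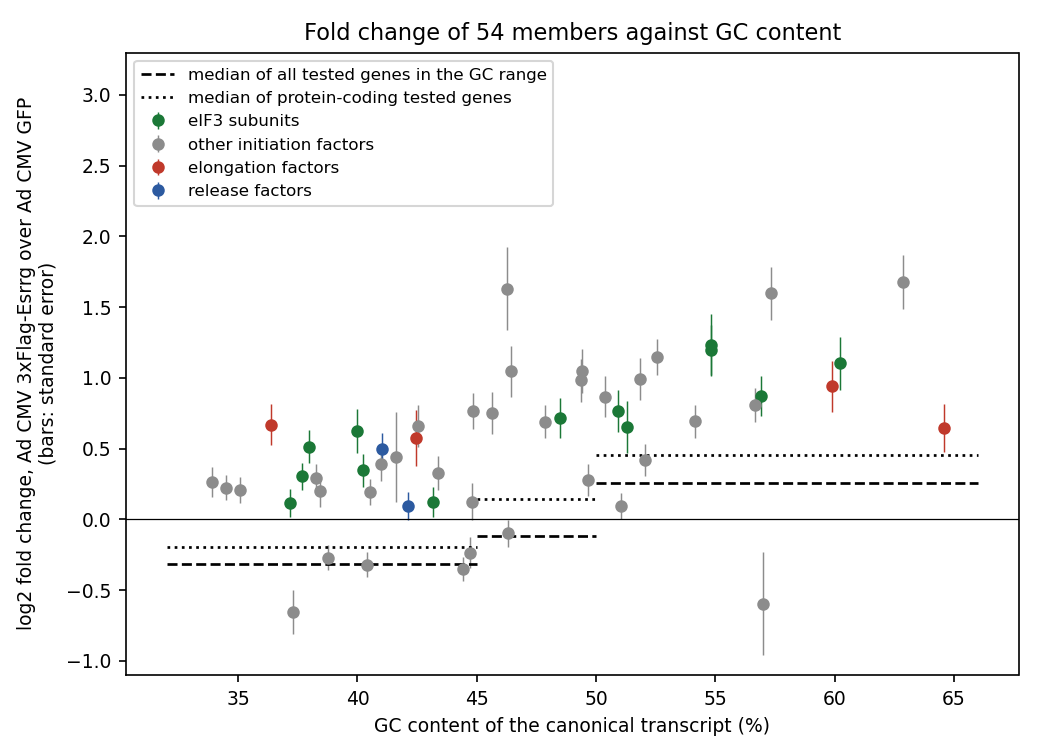
Log2 fold change with its standard error (y axis) against transcript GC content in percent (x axis) for the 54 tested members; dashed and dotted lines give the median of all tested genes and of protein-coding genes in 3 GC ranges. Members of high GC content lie higher, and in each range most members lie above both lines.

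After correction of each library for GC content and length, 26 members were called higher, where 15.5% of all tested genes were, and 20 of them were among the 26 called before. EEF2 (0.53), EEF1A2 (0.20), EIF2B4 (0.45), EIF3B (0.53), EIF3I (0.54) and EIF4G1 (0.52) were no longer called. EEF1A1 (0.75), GSPT1 (0.79), EIF2S3 (0.61), EIF3H (0.59), EIF3M (0.84) and EIF5A2 (0.64) were called after the correction and not before it. EIF2B1, EIF2B2, EIF2B3 and EIF2B5 kept their calls, at 0.84, 0.83, 0.67 and 0.94, as did EIF4EBP1 (1.39) and EIF6 (1.34).

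Of 68 other genes of translation, listed by function, 21 were called higher (30.9%) and 1 lower, with a median log2 fold change of 0.23. Over all tested genes 17.3% were called higher, and over protein-coding genes 25.9%. After the GC and length correction 17 of the 68 were higher and 1 was lower, where 15.5% and 13.2% of all tested genes were. None of the 6 genes for the eIF2 kinases and the PPP1R15 subunits that reverse their action was called. At an adjusted p below 0.05 in edgeR's quasi-likelihood test but under 1.5-fold, the kinases EIF2AK2 and EIF2AK3 had log2 fold changes of -0.38 and -0.41, and PPP1R15A and PPP1R15B of 0.38 and 0.50. With the correction these were 0.026, -0.27, -0.021 and 0.67, so that EIF2AK2 and PPP1R15A turned sign near 0 and PPP1R15B was called higher.

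The counts per list stand beside 17.3% of all tested genes and 25.9% of protein-coding genes called higher. With the correction, 15.5% of all tested genes were called higher. Of 16 enzymes that modify translation factors, 7 were higher, and 5 after the correction. They included EEF1AKMT4 (1.29), at 0.485 to 2.23 CPM, EEF1AKMT1 (0.86), EEF2KMT (0.95), which methylates eEF2, and METTL13 (0.78), which methylates eEF1A. Among them were also DPH2 (0.68) and DPH3 (0.62) of the diphthamide pathway of eEF2, and DOHH (0.97), which completes hypusine on eIF5A. DPH2 and DOHH were not called with the correction (0.32 and 0.49). Of 12 genes of the mTOR axis, 5 were higher, RPS6KB2 (1.21), MLST8 (0.95), LARP1 (0.87), RPTOR (0.79) and TSC2 (0.61), of which only RPS6KB2 (0.79) and LARP1 (0.71) were called with the correction. Of 7 poly(A)-binding proteins and partners none was higher and PAIP2B was lower (-0.65). With the correction PAIP2B was not called (-0.44) and PABPC1L was lower (-0.94). Of 8 accessory factors 3 were higher, MCTS1 (0.90), BZW2 (0.85) and DAP (0.67), the last not with the correction (0.42). Of 7 release and rescue factors 4 were higher, and 3 with the correction, among them ZNF598 (1.05), which marks collided ribosomes, and GSPT2 (0.94), the retrocopy of GSPT1. Of 12 mitochondrial translation factors 2 were higher, TUFM (1.54), the mitochondrial counterpart of eEF1A, and MRPL58 (1.14), and the median of that list was 0.07. With the correction GFM1 (0.64) and MRRF (0.74) were called higher as well.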

How the data were processed

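RNA-seq of 3 Ad CMV GFP and 3 Ad CMV 3xFlag-Esrrg libraries was used. The authors deposited raw counts per gene from HTSeq-count. The submitters' processing notes name CASAVA, Trim Galore 0.6.7, STAR 2.7.9a, HTSeq 0.11.3, DESeq2 and GRCh38. The library kit was directional, but the annotation release and strand setting of the counting are not given in the sources used here, so reads of overlapping and antisense genes may have been assigned either way. Identifiers were matched without version to GENCODE release 44 (90.1% found), which gave symbols, gene types and, from each gene's canonical transcript, length and GC content.

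Counts were fitted in R 4.3.3 with edgeR 4.0.16 (filterByExpr, TMM scaling, quasi-likelihood test) on all genes, without a block. p-values were adjusted by Benjamini-Hochberg over the 24500 genes tested, and a call also needed a 1.5-fold change. Each standard error was derived from the F statistic, as the size of the log2 fold change divided by its square root. CPM were normalized with TMM factors. Paralog ratios used counts with 0.5 added. Words of 31 bases of each member's canonical transcript were looked up in the whole genome sequence with its alternate contigs. Promoter entries came from RefSeq.

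Values in every library are given for all tested elongation and release factors, for up to 4 called members per complex, for the largest change in a complex without a call and for paralog pairs. EIF3I, EIF2S1 and EIF2S2 were added after their values were seen. Members and lists were chosen with earlier results of these data known. Alternatives were DESeq2 1.42.0, RLE size factors, library size only, other filters and fold cutoffs, protein-coding genes, each library left out, the replicate number as a block, a GC and length correction (mgcv 1.9.3), both together, the outside-gene share of reads as a covariate, and other class memberships. Leaving out EEF1E1 and correcting the paralog differences for GC content and length were added after seeing the data. The fits were tested on simulated data. Python 3.11.15, pandas 2.3.3 and scipy 1.17.1 were used.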

Additional observations from a re-analysis of the deposited data

Results flagged for a closer look

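Entries of the count table that no comparison used differed from the control libraries. Ambiguous reads, which overlap more than 1 gene, made up 4.55% to 4.87% of all entries in the GFP libraries and 5.69%, 9.84% and 9.79% in ERRγ replicates 2, 3 and 4. Reads aligned to several places made up 7.16% to 7.41% in the GFP libraries and 9.33%, 12.7% and 13.0% in ERRγ replicates 2, 3 and 4. All 3 ERRγ libraries lay above all GFP libraries in both entries. Such reads are absent from the values of the members that share sequence or exons with other genes. Among these members are EEF1G, EIF4A1, EIF3C, EIF5A, EIF2S2, EIF2S3 and EIF4E. The part of such reads in the differences of those members was not tested.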

How the results depend on the processing

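The 26 members called higher became 12 with library size as the only scaling, 9 with a 2-fold cutoff and 3 with the outside-gene share of reads as a covariate. They numbered 18 to 35 under the other alternatives, and 22 to 31 when 1 library was left out (31 without ERRγ replicate 2). The count of members called lower (1, EIF4E3) was 0 with DESeq2, RLE size factors, the GC and length correction, the covariate or the 2-fold cutoff, 4 with library size only or without a fold cutoff, and 0 to 2 with 1 library left out (0 without ERRγ replicate 2 or GFP replicate 1, 2 without ERRγ replicate 4). Library size as the only scaling moved the median log2 fold change of all tested genes to -0.42, that of initiation factors from 0.48 to 0.14 and that of elongation factors from 0.66 to 0.32. The covariate moved the class medians to 0.12 and 0.11. The difference of the medians (0.18) was 0.048 with the GC and length correction, 0.034 against core initiation factors and -0.0085 with the covariate, 0.093 to 0.211 with 1 library left out, and 0.17 without EEF1E1. Of the 54 tested members, 12 turned sign with the covariate, among them the called EEF1A2, EIF3F and EIF3I and also EEF1A1 (-0.14), EIF2S3B (-0.21) and ETF1 (-0.080; EEF1A2 -0.070). With library size only 14 did, with protein-coding genes only 5 and with the GC and length correction 3, none of them called, among them EIF5B (-0.12) and ETF1 (-0.23) with library size only and ETF1 (-0.045) with protein-coding genes only. The cause of these changes was not tested.

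The numbers 3 and 4 are shared by both groups, and the correlation of the deviations of same-numbered libraries was 0.075 and -0.0001. Such values cannot settle whether same-numbered libraries were prepared together, which the labels do not say. With the replicate block, 29 members were called higher and 0 lower, and with the block plus the GC and length correction 32 and 0, with a difference of class medians of 0.042. Replicate number 1 occurs only with GFP and 2 only with ERRγ. In both fits the difference therefore rests on replicates 3 and 4, without weight for ERRγ replicate 2. The 9 paralog ratios kept their sign with a pseudocount of 5 and with 1 library left out, and 8 of them with the GC and length correction, where EEF1A2 to EEF1A1 was -0.55.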

Other observations

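Annotated pseudogenes of members that were listed near 0 held counts of their own. The 3 pseudogenes of EIF3K summed to 3.02, 3.72 and 3.08 CPM in GFP replicates 1, 3 and 4 and to 2.09, 1.01 and 0.792 CPM in ERRγ replicates 2, 3 and 4, so that all ERRγ libraries were lower, while EIF3K itself held 1 count in all. The 8 pseudogenes of EEF1B2 summed to 4.82 to 5.36 CPM with GFP and 5.49 to 6.0 CPM with ERRγ. The 13 pseudogenes of EIF4A1 held 23% to 42.8% as many counts as EIF4A1, where those of EEF1A1 held under 2%. These sums were not tested.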
